A study of Caenorhabditis elegans with 20 samples.

Results

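Whole L4 animals of a pair of methionine synthase (metr-1) mutant strains of Caenorhabditis elegans were compared on bacteria carrying an nhr-114 RNAi clone. The comparison holds 4 of the 20 samples of the series, 2 biological replicates per strain, chosen by strain and RNAi clone from the labels. The first strain, Δmetr-1 (VL1102), carries the deletion allele metr-1(ok521), was backcrossed to N2 animals and was crossed to the reporter strain. The second, metr-1(ww52);nhr-10 (VL1201), carries the metr-1(ww52) allele recovered from an ethyl methanesulfonate screen together with the nhr-10(tm4695) deletion, and was backcrossed to its Pacdh-1::GFP;Δnhr-10 parent. Both carry the transgene wwIs24[Pacdh-1::GFP;unc-119(+)], in which the acdh-1 promoter drives green fluorescent protein. Plates for all 4 samples held 20 nM vitamin B12 and a lawn of E. coli HT115, animals were on them for 48 hours, and a minimum of 200 animals was pooled per sample. Reference values come from the same strains on HT115 with the empty vector and from wild type animals with the same transgene (VL749) on vector and on nhr-114 RNAi, which together with the 4 make a table of 12 libraries. Each strain is 1 line, and the strains differ in the metr-1 allele, in nhr-10 and in their backcross parent. These differences cannot be told apart here.

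Methionine synthase uses vitamin B12 to remake methionine from homocysteine as part of the Met/SAM cycle, named for methionine and S-adenosylmethionine (SAM), which supplies the methyl groups for phosphatidylcholine and other products. The nuclear hormone receptors, to which NHR-114 and NHR-10 belong, are transcription factors that bind small molecules. Animals without NHR-114 depend on dietary vitamin B12 for fertility, and NHR-10 acts in the response to propionate, which builds up when vitamin B12 is short. With nhr-114 targeted in both strains, the comparison asks how far strains with a different metr-1 lesion, 1 of them also lacking nhr-10, differ in their transcripts.

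The Δmetr-1 RNAi libraries held 11073511 and 13858977 reads in replicates 1 and 2, and the metr-1(ww52);nhr-10 RNAi libraries 4782988 and 15534125, within a range of 2542155 to 16025927 over the 12 libraries. Values are CPM, read counts scaled to a library total of 1000000, and reads came from the 3′ ends of transcripts. Replicates of Δmetr-1 RNAi correlated with r = 0.956 across genes on log2(CPM + 1), and those of metr-1(ww52);nhr-10 RNAi with r = 0.945. Replicates of Δmetr-1 on vector stood apart from each other, with r = 0.844. In whole animals, fewer cells of a type and less RNA per cell cannot be told apart.

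The targeted gene did not follow the label in replicate 1. For nhr-114, the Δmetr-1 libraries labelled nhr-114 RNAi read 193 CPM in replicate 1 and 7.94 CPM in replicate 2. Those of metr-1(ww52);nhr-10 read 391 and 3.60 CPM, and the vector libraries of the 2 strains 29.4 to 46.3 CPM. Replicate 1 was thus above vector and replicate 2 below it in both strains, and wild type did the same (340.3 and 2.30 CPM). The strain difference in nhr-114 on RNAi was 0.03 on the log2 scale with an SE of 2.58, and replicate pairs are therefore given separately where results rest on replicate 1. By contrast, msra-1, which encodes a methionine sulfoxide reductase, was low in both replicates. It read 47.1 and 47.1 CPM on RNAi in Δmetr-1, 57.9 and 41 CPM on RNAi in metr-1(ww52);nhr-10, and 768 to 1317 CPM in the 4 vector libraries of these strains.

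Transcripts of the mutated genes separated the strains in opposite directions. For metr-1, Δmetr-1 read 30.3 and 45.7 CPM on RNAi and metr-1(ww52);nhr-10 read 130.0 and 116 CPM, with wild type between them at 94.5 and 73.7 CPM. The groups did not overlap, and the log2 difference, metr-1(ww52);nhr-10 minus Δmetr-1, was 1.69 (SE 0.26, limma adjusted p = 0.108), which did not pass the test. For nhr-10, Δmetr-1 read 79.6 and 72.3 CPM and metr-1(ww52);nhr-10 read 22.2 and 25.9 CPM, without overlap, a log2 difference of -1.62 (SE 0.34, adjusted p = 0.387). Wild type on RNAi read 38.6 and 22.8 CPM, so the nhr-10 deletion strain overlapped wild type and Δmetr-1 lay above it. The extent of the deletions relative to the 3′ reads is not given in the sources used here, so neither level checks a genotype label. The gene metr-1 lies at chromosome II 10926561 to 10931078 and nhr-10 at chromosome III 7112295 to 7115438 (WBcel235, like every position here).

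**Figure D1:**
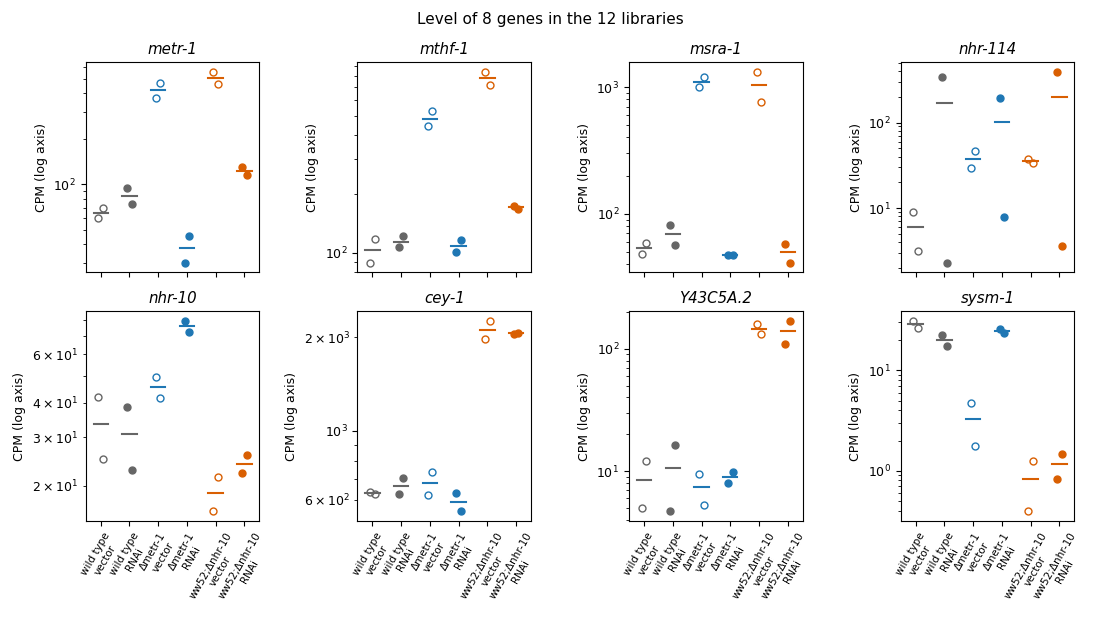
CPM (log axis) of 8 genes in the 12 libraries, each point 1 library and each bar the mean of a group of 2. On RNAi, metr-1, cey-1 and Y43C5A.2 were above Δmetr-1 in both metr-1(ww52);nhr-10 libraries and nhr-10 and sysm-1 below, msra-1 was low in both strains, and nhr-114 split by replicate.

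Across the transcriptome few genes separated the strains on RNAi. With limma on log2(CPM + 1), 0 of 11543 genes tested (0%) passed the study's thresholds of an adjusted p under 0.01 and a fold change over 1.5. At an unadjusted p under 0.05 there were 361 genes (3.13%), 256 higher (2.22%) and 105 lower (0.91%) in metr-1(ww52);nhr-10. That split depended on scaling, since the median of all genes was 0.13 on the log2 scale and moved to 0.03 with median-of-ratios scaling, where 164 were higher and 180 lower. The count of 361 was 670 without replicate 1 and 674 without replicate 2 of Δmetr-1 on vector, whose spread enters the shared variance. It was 185 without replicate 1 of metr-1(ww52);nhr-10 on RNAi and 103 without replicate 1 of both strains on RNAi, where the spread was taken from the other groups. The count models run on recovered reads gave 0 calls with edgeR (363 genes at an unadjusted p under 0.05, 3.14%) and 18 with DESeq2 (0.156%, 12 higher and 6 lower).

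At an adjusted p under 0.05, limma gave 3 genes (0.026%): cey-1, sysm-1 and C31E10.5. This set was empty after leaving out either library of Δmetr-1 RNAi, metr-1(ww52);nhr-10 RNAi or wild type vector. The 12 genes that DESeq2 gave as higher in metr-1(ww52);nhr-10 were metr-1, cey-1, nuo-1, F40F8.3, F33A8.4, Y43C5A.2, Y71G12B.18, D1014.6, abu-12, B0511.11, nhr-234 and BE0003N10.6. The 6 lower ones were gldi-2, zer-1, nhr-10, sysm-1, C17H12.6 and C31E10.5.

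The clearest shared feature of the 12 higher genes taken by the rule for naming was their position. Of these 12, 10 lay in a stretch of 27 consecutive tested genes on chromosome II, from ptp-3 to pqm-1 (10975539 to 11152595, 177 kb). The stretch held 23 of the 256 genes higher at an unadjusted p under 0.05 by limma, and 4 of the 12 that DESeq2 called higher. Every gene in it had a log2 difference over 0.5. The share over 0.5 among all genes was 16.1%, and the next longest such stretch held 6 genes. The stretch was chosen from these values, so what follows on RNAi is a description without a test. It began 44.5 kb beyond the end of metr-1, with 4 tested genes between, and it spans 64 annotated genes, 36 of them protein-coding, as were all 27 tested ones.

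The best measured gene of the stretch was cey-1 (11039348 to 11041206), a Y-box RNA-binding protein. Δmetr-1 read 629 and 549.8 CPM on RNAi and metr-1(ww52);nhr-10 read 2046 and 2065 CPM, while wild type read 627 and 703 CPM. Both metr-1(ww52);nhr-10 libraries were thus far above all the others, by 3.49-fold against Δmetr-1 (log2 1.80, SE 0.18, limma adjusted p = 0.0137). On vector, Δmetr-1 read 621 and 738 CPM and metr-1(ww52);nhr-10 read 1970.0 and 2260.3 CPM, a log2 difference of 1.64 (adjusted p = 0.0215).

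Housekeeping genes of unrelated roles in the stretch behaved alike. For nuo-1, a subunit of mitochondrial complex I, values were 171 and 139 CPM in Δmetr-1 against 373 and 387 CPM in metr-1(ww52);nhr-10, a log2 difference of 1.30. For sdhd-1, a subunit of succinate dehydrogenase, they were 387 and 446 against 949 and 1148 CPM (log2 1.33), and for rps-9, a protein of the small ribosomal subunit, 554 and 524 against 1440.1 and 1315 CPM (log2 1.35). In each of these the groups were well separated and the replicates close. The large-subunit gene rpl-36.A read 622 and 505 against 1624 and 1517 CPM (log2 1.48), although the median over 77 ribosomal protein genes was -0.06, below that of all genes.

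Genes with neuronal or developmental roles in the stretch were also higher. For ptp-3, a LAR-type receptor tyrosine phosphatase, Δmetr-1 read 18.7 and 14.9 CPM and metr-1(ww52);nhr-10 read 73.6 and 41.5 CPM (log2 1.67). For unc-53, required for migration of cells and axons, values were 26.0 and 14.0 against 88.9 and 50.6 CPM (log2 1.76). The uncharacterised F40F8.3 read 17.9 and 18.5 against 60.2 and 71.5 CPM (log2 1.80), and F33A8.4 read 17.2 and 13.9 against 50.0 and 53.0 CPM (log2 1.68). None of these overlapped between strains. The transcription factor gene pqm-1, at the right end, read 144 and 161 against 286 and 425 CPM, and both strains were above the 64.4 and 38.3 CPM of wild type on RNAi.

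Over the 27 genes the median log2 difference was 1.45 on RNAi, or 2.73-fold, from 0.52 (srlf-15) to 2.24 (ram-2, with a range of 254 to 1407 CPM within Δmetr-1 alone). The libraries of the strains did not overlap for 23 of the 27, against 26.9% of all genes in that direction. Leaving out 1 library at a time gave medians from 1.33 to 1.45. On either side, the 27 nearest tested genes had medians of 0.29 on the left and 0.14 on the right.

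**Figure D2:**
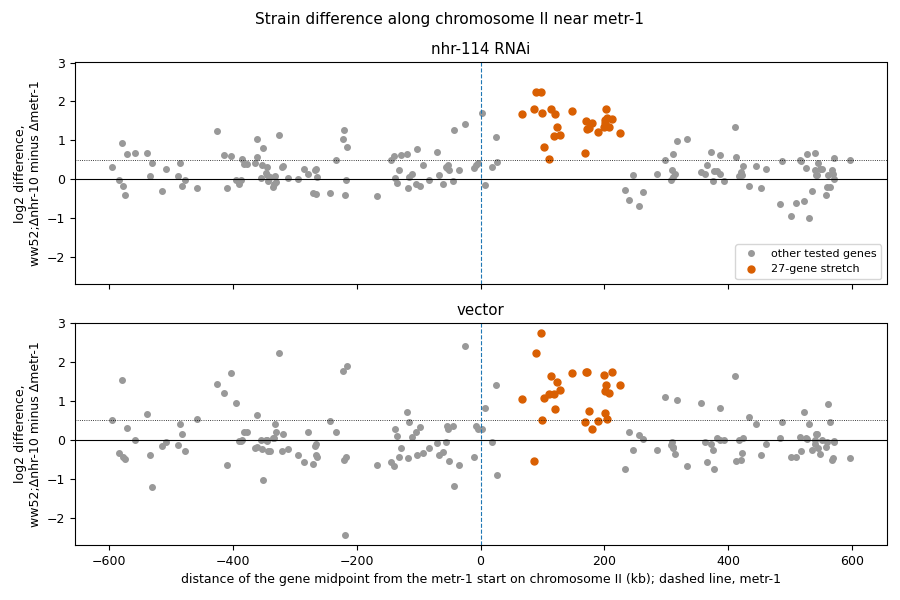
Log2 difference, metr-1(ww52);nhr-10 minus Δmetr-1, of each tested gene against its distance from the start of metr-1 in kb, on nhr-114 RNAi (top) and on vector (bottom), with the stretch of 27 genes in orange and a dotted line at 0.5. The orange points sit together above the line in the top panel, and 23 of 27 do so in the bottom panel.

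The vector libraries, which the choice of the stretch did not use, held the same pattern. There 23 of the 27 genes had a log2 difference over 0.5, against 13.6% of all genes, 26 were above 0, and the libraries of the strains did not overlap, in that direction, for 22, against 12.8%. The median on vector was 1.21, from -0.54 (col-81, a cuticle collagen) to 2.75 (F33A8.7). The interaction, the strain difference on RNAi minus that on vector, had a median of 0.12 over the stretch beside 0.14 over all genes. Against wild type on RNAi, metr-1(ww52);nhr-10 had a median of 1.02, with 21 of the 27 genes above both wild type libraries in both replicates. Δmetr-1 had a median of -0.30, with 15 genes below and 3 above both wild type libraries. These RNAi libraries of the mutants were used to choose the stretch, and the matching shares of all genes are not given here. Relative to the mean of the 4 wild type libraries, the left flank was at -0.41 and -0.33 in Δmetr-1 RNAi. The right flank was at -0.20 and -0.12 there, and the stretch was at 0.07 and -0.05 in Δmetr-1 on vector. The 4 libraries of metr-1(ww52);nhr-10 had medians of 1.01 to 1.26 relative to the wild type mean, and the 4 of Δmetr-1 ranged from -0.35 to 0.07. The 4 wild type libraries centre on 0 by construction. DNA copy number was not measured here.

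**Figure D3:**
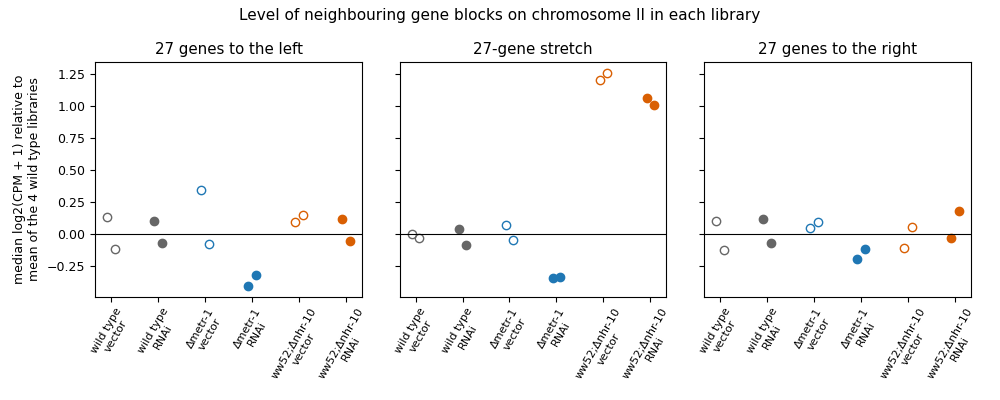
Median log2(CPM + 1) relative to the mean of the 4 wild type libraries, for the 27 genes of the stretch and for the 27 tested genes on each side, in each of the 12 libraries. Only the 4 metr-1(ww52);nhr-10 libraries are near 1 in the stretch (1.01 to 1.26), and on the sides the medians of all 12 libraries run from -0.41 to 0.34.

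Beyond the stretch, genes at an unadjusted p under 0.05 were spread over the chromosomes. Within 2 Mb of metr-1 there were 41 of 560 tested genes (7.32%), and 18 of 533 (3.38%) with the 27 genes left out. Within 2 Mb of nhr-10 there were 20 of 677 (2.95%). By chromosome, with the 27 genes of the stretch counted in, the share ran from 2.42% on X to 4.1% on II. There were 0 genes called at the study's thresholds on any chromosome.

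Apart from metr-1 and the 10 genes of the stretch, the rule named 1 higher gene, Y43C5A.2 on chromosome IV. Δmetr-1 read 7.95 and 9.81 CPM on RNAi, metr-1(ww52);nhr-10 read 110.2 and 170.0 CPM, and wild type read 4.67 and 16.5 CPM. The metr-1(ww52);nhr-10 libraries were above every other strain's, 14.0-fold over Δmetr-1 on this scale (log2 3.81, SE 0.55, limma adjusted p = 0.1). On vector they read 159 and 131 CPM against 9.49 and 5.24 CPM in Δmetr-1 (log2 4.17, adjusted p = 0.0346).

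Some of the genes that DESeq2 called higher in metr-1(ww52);nhr-10 were low in Δmetr-1 against wild type. BE0003N10.6 read 5.78 and 3.25 CPM in Δmetr-1, 258 and 47.3 CPM in metr-1(ww52);nhr-10 and 551 and 297 CPM in wild type on RNAi (log2 4.38, SE 0.99, adjusted p = 0.783). Y71G12B.18 read 2.08 and 2.24 against 40.8 and 8.82 CPM, with wild type at 60.9 and 44.2 CPM. The gene abu-12, of a family with roles in the pharyngeal cuticle and the unfolded protein response, read 3.16 and 2.60 against 66.1 and 10.3 CPM, with wild type at 186 and 75.3 CPM. In all of these replicate 1 of metr-1(ww52);nhr-10 was at least 4 times replicate 2, the Δmetr-1 values were low in both replicates, and none passed the limma test.

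None of the Met/SAM cycle genes passed the test between the strains on RNAi. For mthf-1, which encodes the methylenetetrahydrofolate reductase that makes the methyl donor of METR-1, Δmetr-1 read 101 and 115 CPM and metr-1(ww52);nhr-10 read 172 and 168 CPM. The groups did not overlap, Δmetr-1 was at the wild type level (107 and 121 CPM), and the log2 difference of 0.65 (95% interval 0.17 to 1.14, adjusted p = 0.998) did not pass the test. It was 0.68 on vector. The gene mtrr-1, for the reductase that reactivates methionine synthase, read 30.1 and 23.2 against 32.8 and 31.2 CPM (log2 0.27), also without overlap.

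For sams-1, the main S-adenosylmethionine synthase gene, values were 339.7 and 215 CPM in Δmetr-1 against 289.6 and 212 CPM in metr-1(ww52);nhr-10, which overlapped (log2 -0.13, 95% interval -0.93 to 0.68). The S-adenosylhomocysteine hydrolase gene ahcy-1 read 3423 and 3138 against 3184 and 3371 CPM, a difference of -0.00 with an interval of -0.44 to 0.43. The serine hydroxymethyltransferase gene mel-32 read 69.4 and 86.7 against 55.0 and 84.7 CPM (log2 -0.18), again overlapping. The median of the 6 cycle genes was 0.13, the same as over all genes, and 0 of 6 passed the limma test, with metr-1 and mthf-1 higher at an unadjusted p under 0.05, beside 2.22% of all genes.

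Among genes linked to the cycle, 0 of 8 passed the test or reached an unadjusted p under 0.05. The difference for msra-1 was 0.05 with a 95% interval of -0.64 to 0.73. For pmp-5, which encodes an ABC transporter, Δmetr-1 read 17.6 and 24.7 CPM and metr-1(ww52);nhr-10 read 22.6 and 17.6 CPM. For cbs-1, the cystathionine beta-synthase that draws homocysteine out of the cycle, values were 84.7 and 57.7 against 77.6 and 70.3 CPM. Both overlapped between strains. The S-adenosylmethionine synthase genes sams-3 and sams-4 differed by 0.15 and 0.16, and mrp-5, a transporter implicated in moving vitamin B12 out of the intestine, by -0.12, all overlapping. The low synthase gene sams-5 read 3.52 and 3.82 against 6.48 and 4.96 CPM (log2 0.52), and cblc-1, a gene of cobalamin processing, read 6.23 and 7.79 against 11.7 and 10.9 CPM (log2 0.62). These were the 2 of the 8 linked genes that were higher in metr-1(ww52);nhr-10 without overlap, beside 26.9% of all genes in that direction. The phosphoethanolamine methyltransferase gene pmt-2, which uses S-adenosylmethionine to make phosphocholine, read 390.3 and 663 against 286 and 581 CPM (log2 -0.32).

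The propionate shunt breaks down propionate when vitamin B12 is short, and none of its genes passed the test on RNAi. Its first gene acdh-1, the acyl-CoA dehydrogenase whose promoter drives the reporter, read 15.6 and 22 CPM in Δmetr-1 against 50.4 and 16.4 CPM in metr-1(ww52);nhr-10. The groups overlapped (log2 0.61, SE 0.67). Wild type on RNAi read 22.4 and 8.23 CPM, and the mutants on vector 272 to 949 CPM. The differences were -0.03 for ech-6, -0.03 for hach-1, 0.26 for hphd-1 and -0.18 for alh-8, the later enzymes of the shunt, with 0 of 5 genes at an unadjusted p under 0.05. The median of the 5 was -0.03 on RNAi and -0.79 on vector. The interaction was 1.40 for hphd-1 (limma unadjusted p = 0.0353, adjusted p = 0.983). The receptor gene nhr-68, which acts with nhr-10 in the propionate response, read 4.61 and 6.28 against 12.5 and 8.56 CPM without overlap (log2 0.83, SE 0.37, adjusted p = 0.998).

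Among genes lower in metr-1(ww52);nhr-10, sysm-1, an intestinal gene of the response to pathogens, separated the strains most clearly. It lies on chromosome II at 9082626 to 9083193, within 2 Mb of metr-1. Δmetr-1 read 25.6 and 23.6 CPM on RNAi and metr-1(ww52);nhr-10 read 0.836 and 1.48 CPM, with wild type at 22.4 and 17.4 CPM. Both metr-1(ww52);nhr-10 libraries were below all libraries of the other strains on RNAi, 12-fold below Δmetr-1 on this scale (log2 -3.58, SE 0.40, limma adjusted p = 0.0225). On vector Δmetr-1 was itself low at 4.74 and 1.75 CPM, metr-1(ww52);nhr-10 read 0.393 and 1.25 CPM and wild type 31.2 and 26.5 CPM. The interaction was -2.42 with an unadjusted p of 0.0016 and an adjusted p of 0.983 by limma.

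C31E10.5, on the X chromosome, lies outside the rule for naming and is given because it was among the 3 genes at an adjusted p under 0.05. It read 7.41 and 8.80 CPM in Δmetr-1 against 0 and 0.257 CPM in metr-1(ww52);nhr-10, where a count of 0 allows up to 0.627 CPM. On vector it read 6.57 and 4.16 CPM in Δmetr-1 against 0 and 0.0624 CPM in metr-1(ww52);nhr-10, so the strains were separated on both bacteria. The log2 difference on RNAi was -3.02 (limma adjusted p = 0.045).

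Other lower genes showed smaller but closely replicated differences. For gldi-2, Δmetr-1 read 113 and 124 CPM and metr-1(ww52);nhr-10 read 27.4 and 28.4 CPM (log2 -2.04, adjusted p = 0.413). For zer-1, a subunit of a ubiquitin ligase, values were 119 and 93.9 against 32.4 and 26.8 CPM (log2 -1.80, adjusted p = 0.387). Both were separated on vector too, by -2.75 and -1.93. F53A9.7 read 76.7 and 76.6 against 39.5 and 40.6 CPM (log2 -0.92) and Y54G2A.45 read 50.5 and 53.8 against 20.9 and 19.3 CPM (log2 -1.33). These did not overlap on RNAi, while on vector their differences were 0.01 and 0.31. The proteasome-related gene rpn-6.2 read 51.3 and 53.5 against 25.7 and 27.8 CPM, and the histone gene his-37 read 206 and 183 against 99.9 and 86.7 CPM, beside a median difference of 0.25 over 54 histone genes.

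The remaining lower genes named by rule were uncharacterised. F53F1.6 read 39.3 and 24.5 CPM in Δmetr-1 against 13.2 and 10.9 CPM in metr-1(ww52);nhr-10, and K08D8.5 read 18.2 and 23.2 against 4.60 and 8.18 CPM. B0238.12 read 81.3 and 186 against 28 and 42.3 CPM, with both strains above the 1.56 and 7.78 CPM of wild type on RNAi. None of these overlapped, with log2 differences of -1.30, -1.59 and -1.81, and none passed the test.

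Intestinal pathogen response genes had on balance lower values in metr-1(ww52);nhr-10. Of 16 tested members, 15 were lower in metr-1(ww52);nhr-10, 9 of them without overlap (10.6% of all genes). There were 6 at an unadjusted p under 0.05 (0.91% of all genes), and 0 passed the study's thresholds. The list holds sysm-1, already described above (log2 -3.58, limma adjusted p = 0.0225), and lys-2, which is counted again among the lysozymes below. The 6 became 3 without replicate 2 of either strain. The median was -0.96, with -1.09 between replicates 1 and -0.73 between replicates 2, beside 0.13 over all genes. The summed level was 2287 and 1877 CPM in Δmetr-1, 1046 and 1119 CPM in metr-1(ww52);nhr-10 and 2259 and 1923 CPM in wild type on RNAi. On vector the median was -0.61, but the summed level overlapped between the strains. It was 883 and 1185 CPM in Δmetr-1 against 1074 and 816 CPM in metr-1(ww52);nhr-10. Wild type on vector was at 1938 and 1938 CPM.

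Single members showed this at quite different levels. For irg-4, a pathogen-induced gene of the intestine, Δmetr-1 read 18.2 and 39.5 CPM and metr-1(ww52);nhr-10 read 2.09 and 5.34 CPM (log2 -2.65). For dod-22, which responds to insulin signalling and to pathogens, values were 29.8 and 37.8 against 7.94 and 3.03 CPM (log2 -2.53). For the uncharacterised C17H12.8 they were 35.7 and 59.9 against 16.7 and 13.6 CPM (log2 -1.55). The lysozyme gene lys-2 was abundant in each library, at 764 and 963 against 235 and 619.6 CPM (log2 -1.17). None of the 4 overlapped, and none passed the adjusted test. The neighbouring gene C17H12.6, outside the list, read 19.2 and 40.7 against 6.06 and 6.89 CPM (log2 -1.96).

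Related families were less uniform. Of 67 tested C-type lectins, 22 were higher and 45 lower, with 1 and 4 at an unadjusted p under 0.05, beside 2.22% and 0.91% of all genes in those directions, and a median of -0.38, which was -0.05 without replicate 1 of metr-1(ww52);nhr-10. The 4 became 2 without that library or without replicate 2 of Δmetr-1, and 11 without replicate 2 of metr-1(ww52);nhr-10. Of 12 tested lysozymes, lys-1, lys-2 and lys-8 were lower and lys-4 higher at an unadjusted p under 0.05 (0.91% and 2.22% of all genes). The lysozyme median was -0.21 on RNAi but 0.84 on vector, beside 0.13 and -0.06 over all genes. For lys-4, Δmetr-1 read 7.77 and 9.02 CPM and metr-1(ww52);nhr-10 read 43.1 and 24.1 CPM, with wild type at 21.6 and 56.3 CPM. In lys-1 the spread within metr-1(ww52);nhr-10 was large (688 and 1502 CPM, against 1627 and 1886 CPM in Δmetr-1), and in lys-8 it was small (144 and 151 against 238 and 259 CPM).

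Glutathione transferases, enzymes that conjugate electrophiles, were on balance higher. Of 26 tested, 21 were higher and 5 were at an unadjusted p under 0.05 (2.22% of all genes), all in that direction, with a median of 0.38 on RNAi and 0.62 on vector. That count was 2 without replicate 1 of Δmetr-1 or without replicate 2 of metr-1(ww52);nhr-10. For gst-4, Δmetr-1 read 45.0 and 32.5 CPM and metr-1(ww52);nhr-10 read 56.5 and 122 CPM (log2 1.10). For gst-7 values were 75.2 and 68.7 against 137 and 130.4 CPM (log2 0.88). For gst-24 they were 19.5 and 16.8 against 28.2 and 49.8 CPM (log2 1.01). All 3 were without overlap, and gst-24 was above the 3.27 and 6.89 CPM of wild type in both mutants. The gene gst-5 (log2 1.07) is 1 of the 4 tested genes between metr-1 and the stretch on chromosome II, and none of the family passed the adjusted test.

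Markers of stage and of the germ line had medians away from the 0.13 of all genes. Molting and cuticle genes, which cycle through each larval stage, were higher in metr-1(ww52);nhr-10 for 21 of 22, with a median of 1.24. Of these genes 1 (nhr-23) was higher at an unadjusted p under 0.05 (2.22% of all genes). Without overlap, 6 were higher and 1 lower (26.9% and 10.6% of all genes). The median was 1.19 between replicates 1 and 1.34 between replicates 2. Leaving out replicate 1 or 2 of metr-1(ww52);nhr-10 gave 0.33 or 2.10, and leaving out replicate 1 or 2 of Δmetr-1 gave 2.20 or 0.40. On vector their median was 1.74, and their sum was 677 and 10760 CPM in Δmetr-1 against 10224 and 8600 CPM in metr-1(ww52);nhr-10. There only replicate 1 of Δmetr-1 stood far below the other libraries of the 2 strains. On RNAi their sum was 2357 and 603 CPM in Δmetr-1 against 6766 and 1456 CPM in metr-1(ww52);nhr-10, so replicates differed more than strains. Wild type on RNAi was at 5995 and 9334 CPM. The regulator nhr-23 itself read 9.75 and 7.29 against 23.2 and 15.4 CPM without overlap (log2 1.08), and the collagen gene sqt-3 read 1420.3 and 343 against 4646 and 871 CPM. Vitellogenins, yolk proteins of the adult intestine, were lower for 6 of 6, with a sum of 3245 and 5518 against 345 and 3423 CPM and 295 and 125 CPM in wild type. Their median was -1.92, but -3.19 between replicates 1 and -0.43 between replicates 2, and none was at an unadjusted p under 0.05.

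Oocyte and eggshell genes were higher for 17 of 19, 12 without overlap (26.9% of all genes in that direction), and had a median of 0.98, which was 1.57 without replicate 1 and 0.53 without replicate 2 of metr-1(ww52);nhr-10. By limma 0 of the 19 reached an unadjusted p under 0.05, and 10 did after either library of Δmetr-1 on vector was left out, where the count over all genes was 670 or 674 in place of 361. For cpg-2, an eggshell proteoglycan, Δmetr-1 read 25.4 and 36.6 CPM and metr-1(ww52);nhr-10 read 44.7 and 115 CPM, both below the 403 and 327 CPM of wild type on RNAi. On vector the list had a median of -1.74, with 10 of 19 genes lower at an unadjusted p under 0.05, beside 325 of all 11543 genes tested. Its sum there was 7655 and 1097 CPM in Δmetr-1 against 681 and 912 CPM in metr-1(ww52);nhr-10, so replicate 1 of Δmetr-1 stood far above the other 3. General germ line genes had a median of 0.42 over 16, and major sperm proteins 0.47 over 29. Heat shock and unfolded protein chaperones had a median of 0.88 over 17, which was 2.06 between replicates 1 and 0.13 between replicates 2, and hsp-70 read 58.7 CPM in replicate 1 of metr-1(ww52);nhr-10 against 2.80 to 5.21 CPM in the other 3.

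The defining markers of the main tissues were present in all 4 libraries. Of the 9 intestinal genes, 7 were below 0 and 3 were lower without overlap (10.6% of all genes). Medians were -0.27 for 9 intestinal genes, -0.23 for 10 body wall muscle genes, -0.00 for 6 pharyngeal muscle genes and 0.06 for 10 neuronal genes, with all genes at 0.13. The part of stage, germ line content and chaperone level in the strain differences was not tested. Between replicates 2 alone the stretch on chromosome II had a median of 1.47 and the pathogen response list -0.73. Molting genes were at 1.34, oocyte genes at 1.37 and germ line genes at 0.51 there, while chaperones were at 0.13 and vitellogenins at -0.43.

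**Figure D4:**
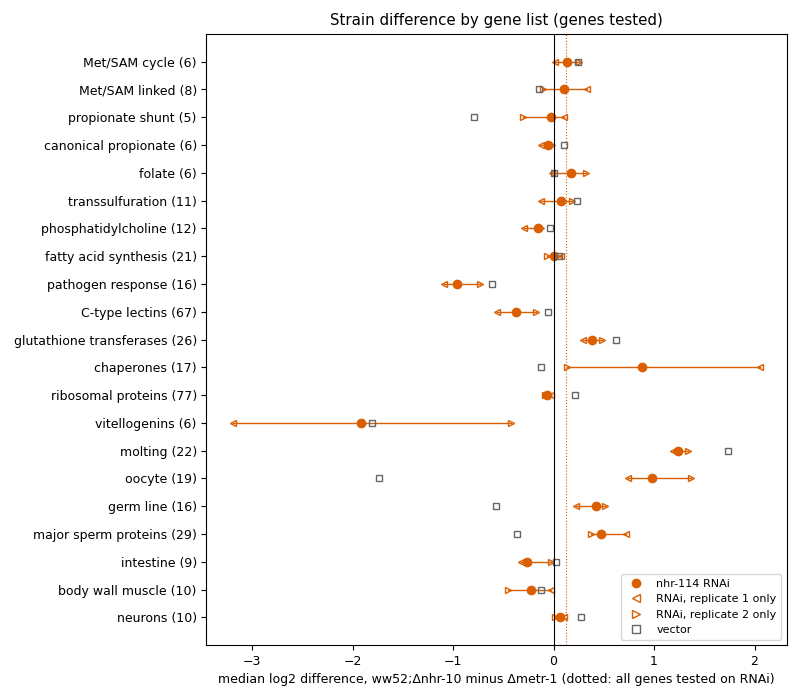
Median log2 difference, metr-1(ww52);nhr-10 minus Δmetr-1, of each gene list on nhr-114 RNAi, between replicates 1 only, between replicates 2 only, and on vector, with the median of all genes on RNAi as a dotted line. Chaperones (2.06 and 0.13) and vitellogenins (-3.19 and -0.43) separate by replicate, whereas pathogen response genes (-1.09 and -0.73) do so less.

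The interaction, which asks whether the strain difference depended on the bacteria, gave 0 calls with limma (0%), with 461 genes at an unadjusted p under 0.05 (3.99%) and a smallest adjusted p of 0.983. edgeR gave 0 calls (527 genes at an unadjusted p under 0.05, 4.57%) and DESeq2 gave 1 (0.00866%), C08E3.13. Without replicate 2 of Δmetr-1 on vector the limma count at an unadjusted p under 0.05 was 2537, with 92 genes at an adjusted p under 0.05 and 0 calls at the study's thresholds. Without replicate 1 of that group the counts were 210 and 0. On vector alone, the same strains differed at 0 genes with limma (589 at an unadjusted p under 0.05, 5.1%, and 12 at an adjusted p under 0.05, 0.104%), at 0 with edgeR (745, 6.45%) and at 43 with DESeq2 (0.373%). Without replicate 2 of Δmetr-1 on vector, limma gave 26 there. The genes of the interaction included oocyte and germ line genes. Of 19 oocyte genes, 13 were at an unadjusted p under 0.05, all with a more positive strain difference on RNAi than on vector, with a median interaction of 2.73 beside 0.14 over all genes, and of 16 germ line genes 7 were, with a median of 0.97. Leaving out 1 library at a time gave 4 to 18 of the oocyte genes and 2 to 12 of the germ line genes. Without replicate 1 of Δmetr-1 on vector the medians were 1.39 and 0.36, and without replicate 2 they were 4.07 and 1.70.

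The gene metr-1 carried an interaction of 1.42 (SE 0.37, limma unadjusted p = 0.00342, adjusted p = 0.983). On vector its level was 372 and 468 CPM in Δmetr-1 against 555 and 462 CPM in metr-1(ww52);nhr-10 (log2 0.28), which overlapped, while on RNAi it did not.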

How the data were processed

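The 4 libraries of the 2 strains on nhr-114 RNAi were fitted with all 12 libraries of the RNAi experiment (6 groups of 2). The authors prepared 3′-end libraries with a modified CEL-seq2 protocol, trimmed reads with Trimmomatic 0.32, aligned them with STAR and counted with ESAT. The deposited values, in a table named TPM, are CPM with no length term: 100% were whole multiples of 1 step per library (tolerance 0.01 steps), from which reads were recovered. Whether they were scaled from reads or unique molecular identifiers is not stated. The design had assumed TPM, and its log-scale test was kept.

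The test was limma 3.58.1 (R 4.3.3; trend and robust settings, two-sided, 6 residual degrees of freedom) on log2(CPM + 1), which understates differences of low genes, for the 11543 of 39341 genes that reached 5 CPM in 2 or more libraries. P values were adjusted by Benjamini-Hochberg over these, and intervals are 95%. How the biological replicates were separated is not stated, so p values measure the spread between these samples only. Alternatives were edgeR 4.0.16 and DESeq2 1.42.0 on recovered reads, other scalings, filters and pseudocounts, a replicate block and leaving out each library. A count of 0 allows up to 3 reads, for counting error only.

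Positions are from WBcel235 (Ensembl release 115), where 39258 genes matched. Named genes were those of the Met/SAM, linked, shunt and receptor lists, cbs-1 and pmt-2, and up to 12 higher and 12 lower genes without overlap whose higher group averaged at least 20 CPM, by smallest unadjusted p where not called. Other list members, further genes of the stretch and genes called by DESeq2 alone were chosen after their values were seen. Members and lists were chosen with earlier results of these data known. Near-identical copies (the hsp-16 family, major sperm proteins, histones, lectins), overlapping genes and antisense genes are uncertain, since strand use is not stated. The list symbols sqrd-2 and F49F1.6 were not matched. The methionine experiment was not used here.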

Additional observations from a re-analysis of the deposited data

How the results depend on the processing

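The strain difference on nhr-114 RNAi had 0 calls under the thresholds of the study and gave 1 with a filter of at least 20 CPM, 18 with DESeq2 and 3 at an adjusted p under 0.05. The difference on vector had 0 calls and gave 43 with DESeq2 and 12 at an adjusted p under 0.05, and the interaction gave 1 with DESeq2. Leaving out 1 library at a time gave 0 to 0 calls on RNAi, 0 to 26 on vector (26 without replicate 2 of Δmetr-1) and 0 to 0 for the interaction, the lone library of a strain being assumed to vary like the other groups. Among the listed genes, DESeq2 called 4, and within 2 Mb of metr-1 it called 7 and the 20 CPM filter 1, alternatives for position and for the stretch of 27 genes having been chosen after seeing the data. The median of that stretch stayed between 1.32 and 1.52 under all alternatives run. The 361 genes at an unadjusted p under 0.05 on RNAi were 591 with the compared libraries alone and 1411 with no filter. Of the 21 named genes taken from fixed lists, 16 changed sign in at least 1 of 23 settings. The 24 named by rule were chosen for groups that do not overlap, which fixes their sign, so none is counted.

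The replicate numbers are shared across groups in the labels, but nothing there says that they mark a shared culture or day. The correlation of the replicate 1 minus replicate 2 differences between the strains was 0.681 on RNAi and -0.026 on vector. With a replicate block over all groups there were 0 calls on RNAi, 0 on vector and 0 for the interaction, and on RNAi 479 genes in place of 361 had an unadjusted p under 0.05. A block in the compared groups alone, added after seeing the data, gave 0 calls. With 2 libraries per strain and the shallowest RNAi library at 4782988 reads, small differences of low genes were not detectable.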

Other observations

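Further lists had the following medians on nhr-114 RNAi, beside 0.13 over all genes. They were -0.16 for 12 genes of phosphatidylcholine synthesis, 0.00 for 21 genes of fatty acid synthesis and desaturation, 0.17 for 6 folate genes, 0.08 for 11 transsulfuration genes and -0.06 for 6 genes of canonical propionate breakdown. Branched-chain amino acid breakdown had a median of -0.31, with 6 of 7 genes below 0 and 5 lower without overlap (10.6% of all genes), and -0.52 between replicates 1 and -0.05 between replicates 2. Families that respond to toxins were at 0.04 (26 cytochromes P450) and 0.03 (44 UDP-glucuronosyltransferases), nuclear hormone receptors at 0.03 (121 genes), and neuropeptides and insulin-like peptides at -0.01 (113). Cathepsin-like proteases were at -0.27, with 13 of 18 below 0, and cuticle collagens at 0.62, with 82 of 111 above 0 and 1 at an unadjusted p under 0.05 (2.22% of all genes). In the folate list, the thymidylate synthase gene tyms-1 read 8.13 and 2.67 CPM in Δmetr-1 against 13.4 and 10.6 CPM in metr-1(ww52);nhr-10, without overlap (log2 1.16, limma adjusted p = 0.998).

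C08E3.13, the gene that DESeq2 called for the interaction, read 15.4 and 11.9 CPM in Δmetr-1 against 4.60 and 3.41 CPM in metr-1(ww52);nhr-10 on RNAi. On vector it read 1.82 and 1.58 CPM in Δmetr-1 against 10.6 and 4.24 CPM in metr-1(ww52);nhr-10, so the order of the strains was the opposite of that on RNAi.

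Of the other genes DESeq2 called higher on RNAi, D1014.6 read 0.722 and 0.577 CPM in Δmetr-1, 21.3 and 5.21 CPM in metr-1(ww52);nhr-10 and 28.3 and 17.6 CPM in wild type. The receptor gene nhr-234 read 0.361 and 0.433 CPM against 13.2 and 3.35 CPM, with wild type at 5.29 and 7.26 CPM. Both were low in Δmetr-1 alone.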
